A study of Saccharomyces cerevisiae with 35 samples.

Results

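Mitochondrial ribosomal protein genes were followed in budding yeast, Saccharomyces cerevisiae, after rapamycin. They were chosen by name: nuclear genes whose standard symbol in the R64 annotation is MRPL, MRPS, MRP or RSM followed by a digit. This gave 67 genes of the 5843 features in the single-cell table, and all 67 passed the filter on low counts. By their systematic names, 38 encode proteins of the large subunit and 27 of the small subunit. Of these 65 proteins, 41 have bacterial homologues and 24 are specific to mitochondria. The remaining members, MRP8 and RSM22, are not structural proteins of either subunit: RSM22 encodes a methyltransferase-like assembly factor of the small subunit, and the molecular role of Mrp8 is not established.

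Cells of the FY4/5 background grew in rich medium (YPD) at 30 °C and received 200 ng/mL rapamycin. Rapamycin binds the proline isomerase Fpr1, and the complex inhibits the kinase complex TORC1, so the fpr1 deletion removes the drug's receptor. Wild-type strains (72 barcoded strain codes, 162529 cells) and fpr1 deletion strains (6 codes, 10818 cells) shared each flask, and every group was therefore exposed to the same culture. The flask was sampled without a break into 8 collection intervals of 10 min, 2 before the drug (untreated, -20 to 0 min) and 6 after it (treated, 0 to 60 min), in 2 replicate cultures. A separate bulk series followed 3 cultures at 11 times, at 0 min before the drug and from 2.5 to 120 min after it, and its libraries are not divided by genotype.

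The mitochondrial ribosome translates the few proteins encoded in the mitochondrial genome, chiefly core subunits of the respiratory chain and ATP synthase. Nearly all of its proteins are encoded in the nucleus, made in the cytosol and imported. In yeast, many messages for mitochondrial proteins carry in their 3' end a site for Puf3, an RNA-binding protein that promotes decay of its targets during growth on glucose and is linked to their translation during respiratory growth. Cytosolic ribosomal protein genes and ribosome biogenesis genes, by contrast, are classic targets of TORC1 through Sfp1, Sch9 and related regulators.

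UMIs (unique molecular identifiers, each marking 1 captured transcript end) were summed per library and genotype into 32 sums. A sum held 1693 to 14688 wild-type cells or 444 to 911 deletion cells, and 1501368 to 69114350 UMIs. A single member had 40 to 18887 UMIs in a wild-type sum and 13 to 830 in a deletion sum. Levels are given as CPM, the count scaled to a fixed library size, here the TMM-scaled one. Scaled to library totals, FPR1 itself had 13.6 to 98.9 CPM in deletion sums, against 915 to 1820 CPM in wild-type sums. Of 169649 cell barcodes, 3646 occurred in more than 1 library. Among 3750 pairs of cells that shared a barcode across libraries, 1.12% also shared the strain code.

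The shared sequence feature of the group was a Puf3 motif, TGTANATA, in the 200 bases after the stop codon. It stood on the gene's strand in 65 of the 67 members (97.0%), against 826 of 5515 nuclear protein-coding genes with such a window (15.0%). The members without it were MRP8 and RSM22, the pair that encodes no structural protein, so all 38 large-subunit and all 27 small-subunit members held it. On the opposite strand of the same windows the motif occurred in 13 members (19.4%) and in 13.7% of all genes. The first site began 8 to 139 bases after the stop codon (median 51), and 52 members had 1 site, 12 had 2 and 1 had more. It read TGTAAATA in 32 members, TGTATATA in 20, TGTACATA in 12 and TGTAGATA in 1. With a window of 100 bases 60 members held the motif, and with 300 bases 65. A match describes letters in the genome sequence and is not evidence of binding.

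Sites are printed for 4 members with the deepest falls in wild type and for 4 that did not pass the test at 50 to 60 min. They show that both kinds carry the same core, TGTANATA. The sequences are from the RefSeq R64 genome (the sacCer3 build), 5' to 3' on the gene's strand, with the motif in capitals.
MRPL20 (chrXI:599052-599075, minus strand): aacaatcgTGTAAATActactcta
MRPL19 (chrXIV:292091-292114, minus strand): atctattcTGTAAATATGTATATA
RSM26 (chrX:619114-619137, plus strand): ttatatacTGTAAATAgttttatt
MRPS8 (chrXIII:572764-572787, plus strand): acggaccaTGTAAATAataatatt
RSM10 (chrIV:540465-540488, plus strand): ttcgtactTGTAAATAaaataggt
MRPL16 (chrII:146903-146926, plus strand): tgtatacaTGTATATAactattga
MRPL36 (chrII:483853-483876, minus strand): aacagcctTGTATATAccgcaaca
MRP20 (chrIV:1278502-1278525, plus strand): ctcacactTGTATATAcggagcaa
These 24-base stretches lie after the stop codon of each gene. The first site reads TGTAAATA in the 4 members with deep falls and in RSM10, and TGTATATA in MRPL16, MRPL36 and MRP20. The printed members were picked by their change, and others read otherwise. MRPL31 (wild-type log2 change of -1.67 in the last interval) reads TGTATATA, and MRPL49 (-1.69) reads TGTACATA. MRP7 (-0.18) and MRPL22 (-0.28), which did not pass the test, read TGTAAATA. A link between the core and the change was not tested. MRPL19 has a second site, TGTATATA, directly after its first.

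Other mitochondrial lists differed in how often they carried the motif. It occurred in all 13 nuclear genes of other mitochondrial ribosomal proteins, such as MNP1 and NAM9, and in all 13 mitochondrial tRNA synthetase genes. It occurred in 11 of 14 translational activators, 10 of 14 translation factors and 13 of 21 import genes, but in 3 of 32 nuclear respiratory chain and ATP synthase genes. Among 138 cytosolic ribosomal protein genes 6 had it, and among 30 ribosome biogenesis genes 1. The promoter window, 250 bases before to 50 bases after the gene start and both strands, gave the following member shares. The ribosome biogenesis motif AAAATTTT occurred in 5 members (7.46% against 9.48% of all genes), GATGAG in 11 (16.4% against 20.0%), the stress element AGGGG in 11 (16.4% against 21.9%), GATAAG in 12 (17.9% against 14.5%) and CCAAT in 28 (41.8% against 43.9%). Before the gene start only, AAAATTTT occurred in 2.99% of members against 9.14% of all genes, and AGGGG in 10.4% against 19.0%. The Rap1 motif ACCCANACA occurred in no member and in 1.43% of all genes.

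**Figure D1:**
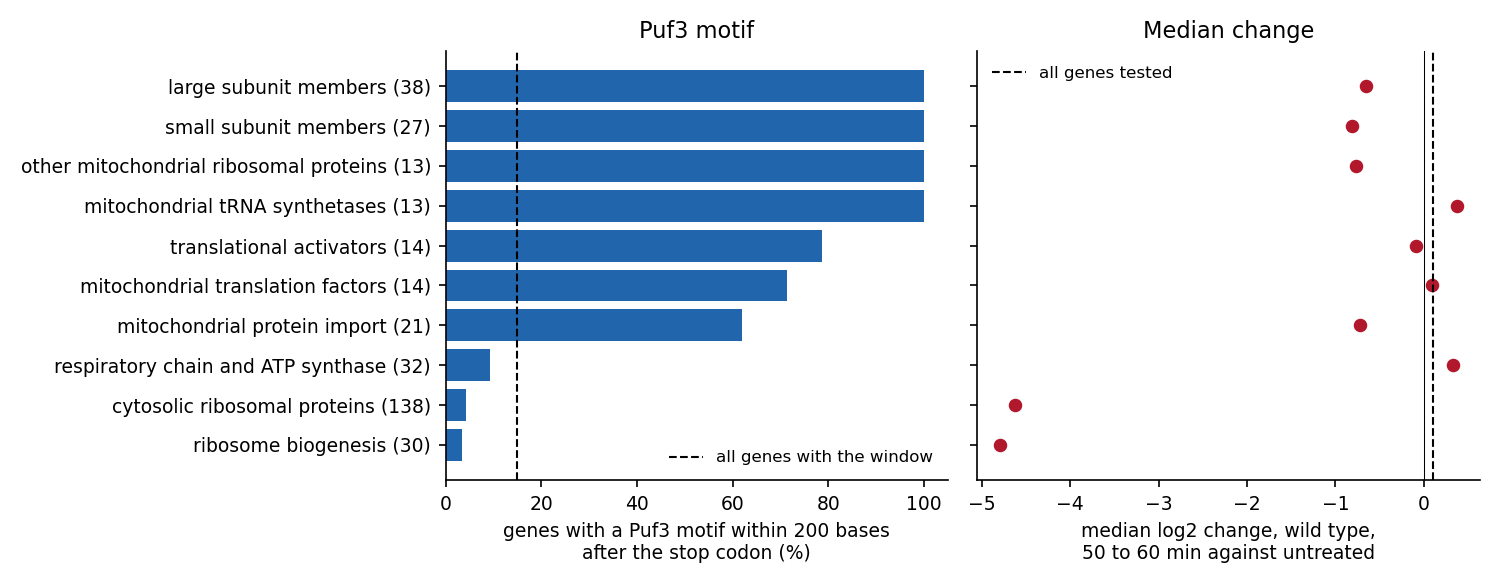
Left, share of genes (%) with a Puf3 motif within 200 bases after the stop codon in each list, with the number of genes that have the window in brackets and all genes as a dashed line (15.0%). Right, median log2 change of the same lists in wild type at 50 to 60 min against untreated, with the median of all genes tested as a dashed line; members (97.0% with the motif) and mitochondrial tRNA synthetases (13 of 13) lie on opposite sides of 0 with TMM, and both lie above 0 with library totals (0.15 and 1.22).

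In wild-type cells most members ended lower relative to the rest of the transcriptome. At 10 to 20 min 9 had risen and 1 had fallen, and at 50 to 60 min 41 of 67 members had fallen, 2 had risen and 24 did not pass the test. The deepest falls, in MRPL20, MRPL19 and RSM26, were log2 changes of -2.19 to -2.01, while MRPL36, RSM10 and RSM23 ended near their untreated levels. In fpr1 deletion cells no member was called. Members passed the test where the Benjamini-Hochberg adjusted p of edgeR's quasi-likelihood test, over 5549 genes, was under 0.05. The background was high: at 50 to 60 min 36.0% of all genes tested fell and 41.9% rose, so that 61.2% of members against 36.0% of all genes fell, and 2.99% against 41.9% rose. The median log2 change was -0.68 for members and 0.11 for all genes tested.

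How far the members fell depended on the scaling, and the share of cytosolic ribosomal protein transcripts moved with it. These made up 3.19 and 3.79% of wild-type UMIs at 50 to 60 min in culture 1 and 2, against 39.0 and 41.4% at -20 to -10 min. Dividing by library totals moved the median of all genes at 50 to 60 min to 0.94, and members then had a median of 0.15 with 6 lower and 17 higher calls. With each sum divided by its number of cells, the member median was -0.65 with 30 lower and 1 higher. Less the median of all genes, the member median was -0.79 with TMM, -0.79 with library totals and -0.79 with scaling by cell number. A change of scaling shifts every gene by nearly the same amount, so these values could hardly differ and are no separate check. Under all 5 settings tried 6 members are called lower, namely MRPL19, MRPL20, MRPL31, MRPL49, MRPS8 and RSM26, and RSM22 is called higher. These 6 are the same as the 6 called lower with library totals. The share of all genes called with library totals, or under all 5 settings, is not given here or below. Whether these member counts are high or low against all genes therefore cannot be read from them. The settings are TMM, RLE, library totals and cell number with edgeR, and DESeq2. DESeq2 is another test on size factors of the RLE kind and not a separate scaling. For the other members "fell" and "rose" below are relative to the transcriptome as TMM scales it.

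**Figure D2:**
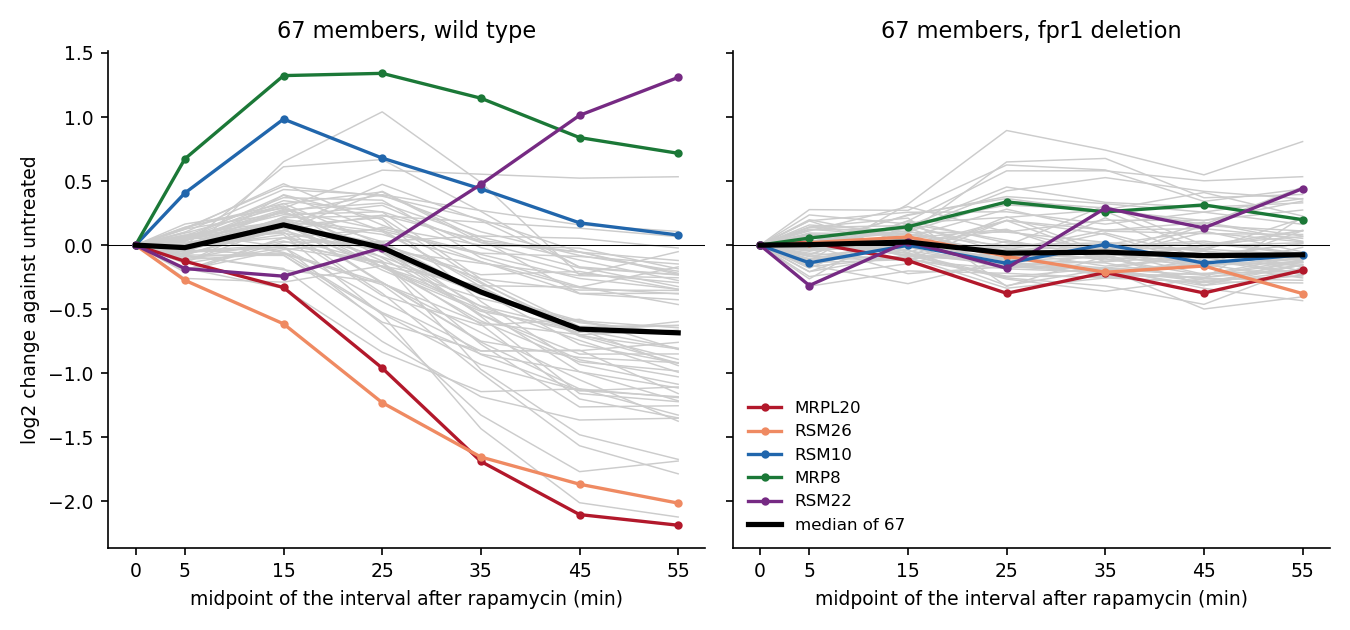
Log2 change against untreated (y axis) of each of 67 members at the midpoint of each treated interval (x axis, min), in wild type (left) and fpr1 deletion (right), with 5 members in colour and the median in black. With TMM the wild-type median reaches -0.68 at 50 to 60 min and the deletion median -0.08; with library totals they are 0.15 and 0.12.

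With TMM the counts of members called in wild type changed from interval to interval. At 0 to 10 min 1 member was called, MRP8, against 10.2% of all genes higher and 9.5% lower. With culture as a block 2 were higher and 1 lower in that interval, and with scaling by cell number 0 were called. At 10 to 20 min 9 members rose and 1 fell, with a median log2 change of 0.16, against 32.2% of all genes higher and 28.5% lower. With culture as a block 19 rose and 4 fell in that interval. At 20 to 30 min 10 rose and 12 fell (all genes: 37.7% higher, 32.4% lower). The counts then turned: 4 higher and 29 lower at 30 to 40 min (all genes: 40.9% and 34.0%), and 2 higher and 39 lower at 40 to 50 min (all genes: 41.7% and 35.1%). The member medians at these intervals were -0.02, -0.37 and -0.66. With library totals the direction of the counts between 10 and 50 min turned towards higher: 30, 39, 24 and 21 members were then higher and 0, 0, 2 and 4 lower. By mean level, 35 members were highest at 10 to 20 min and 16 at 20 to 30 min, while 12 were highest untreated, and 47 were lowest at 50 to 60 min. All 12 members lower at 20 to 30 min, and all 29 lower at 30 to 40 min, were lower at 50 to 60 min too. Of the 14 members that rose at 10 to 20 or 20 to 30 min, 4 were lower at 50 to 60 min: MRPL4, MRPL23, MRPL32 and RSM25. The intervals are compared with the same untreated sums. These overlaps and the intervals of highest and lowest level were not counted over all genes, so they do not set the members apart.

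Set against the interval before, most calls with TMM fell between 10 and 40 min. At 10 to 20 min 3 were called against 0 to 10 min, all higher (39.1% of all genes called). At 20 to 30 min 6 were called, all lower (22.5% of all genes), at 30 to 40 min 7, of which 6 were lower (9.26%), at 40 to 50 min 2 (3.03%) and at 50 to 60 min 0 (0.414%; 1 member with a raw p under 0.05, 0 by DESeq2). With culture as a block the counts of the steps up to 40 to 50 min were 8, 19, 23 and 6. With library totals 0 were called at the steps to 20 to 30, 30 to 40 and 40 to 50 min. With scaling by cell number 0 were called at any step. Leaving out 1 replicate at a time gave 1 to 4, 0 to 7, 0 to 9 and 0 to 3 at these steps. In the 2 untreated intervals, set against each other, 0 members were called in wild type by edgeR (0.0% of all genes), 0 with a raw p under 0.05 and 0 by DESeq2.

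The deepest falls were in proteins of both subunits. MRPL20, which encodes the mitochondrion-specific large-subunit protein mL58, had 12.6 and 18.5 CPM at 50 to 60 min in culture 1 and 2, against 72.7 and 67.3 CPM in the 2 untreated intervals of culture 1 and 77.8 and 77.2 CPM in those of culture 2. Both values at 50 to 60 min lay below all untreated ones, and the log2 change was -2.19 ± 0.22 (SE; adjusted p = 7.45e-09). RSM26, which encodes small-subunit mS42, a relative of manganese superoxide dismutases, had 9.0 and 10.8 CPM at 50 to 60 min against 39.4 to 44.4 CPM in the 4 untreated sums. With TMM it was the only member called lower at 10 to 20 min (0 with library totals or scaling by cell number, 3 with DESeq2 and 4 with culture as a block), at 26.9 ± 2.21 CPM against 41.2 ± 2.48 CPM untreated (SD over 2 cultures), a log2 change of -0.61 ± 0.18 (SE; edgeR adjusted p = 0.00464), and it reached -2.01 ± 0.21 at the end.

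MRPL19 encodes uL11m, a protein of the stalk base where translation factors dock. It had 10.6 and 18.1 CPM at 50 to 60 min, against 74.7 and 77.6 CPM in the 2 untreated sums of culture 1 and a mean of 56.2 CPM in those of culture 2, and its log2 change of -2.12 ± 0.24 included a deeper fall in culture 1 (-2.79) than in culture 2 (-1.61). Its annotated gene overlaps YNL184C on the same strand, and reads from the overlap cannot be assigned. MRPS8, the uS8m gene, had 11.2 and 18.7 CPM against 50.0 to 59.4 CPM untreated. MRPL49 (bL21m) averaged 19.1 ± 5.51 CPM treated and 63.8 ± 2.04 CPM untreated (SD, n = 2 cultures), and MRPL31 (mL60) 21.9 ± 6.90 and 72.3 ± 5.03 CPM. MRPL9, which encodes uL3m of the subunit core, and MRPS5, the uS5m gene, fell by 1.37 ± 0.29 and 1.35 ± 0.17 on the log2 scale. For each of these 8 members every treated sum of that interval lay below every untreated one.

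**Figure D3:**
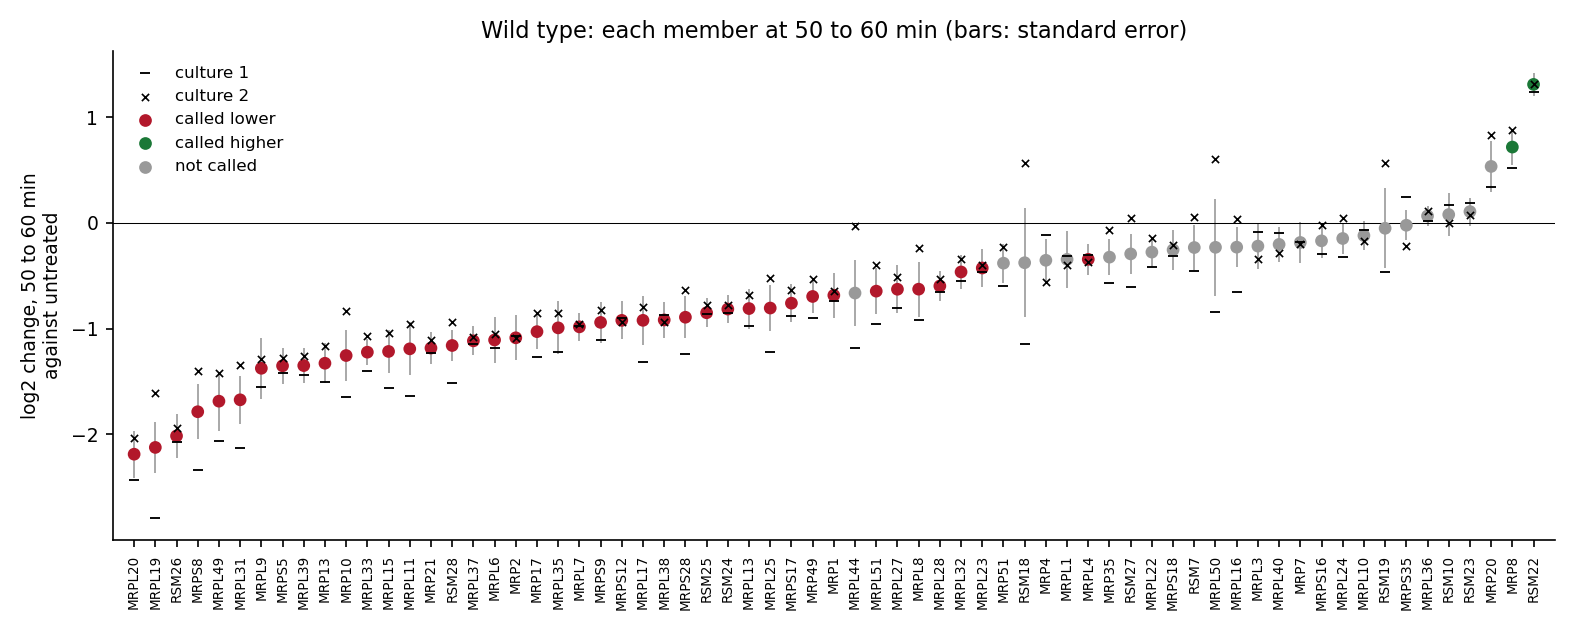
Log2 change of each of the 67 members in wild type at 50 to 60 min against untreated, ranked from lowest to highest, with standard errors as bars, colours for the call, and the change in culture 1 (dash) and culture 2 (cross). Most members lie below 0, 58 of 67 have the same direction in both cultures, and RSM22 and MRP8 are the only ones called higher.

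Among members picked by role rather than by change, those of the decoding and assembly regions of the small subunit differed widely. MRPS12, whose bacterial homologue S12 lies at the decoding centre, averaged 88.0 ± 6.09 CPM treated and 167 ± 14.2 CPM untreated, a log2 change of -0.92 ± 0.18 (edgeR adjusted p = 7.99e-05). MRPS28 (uS15m) fell by 0.89 ± 0.20 and MRP1 (mS43) by 0.68 ± 0.21. MRP51, the bS1m gene, did not pass the test at -0.38 ± 0.19, nor did RSM7 (uS7m) at -0.23 ± 0.21 or RSM23, which encodes the GTP-binding mS29, at 0.11 ± 0.13. RSM23 rose at 20 to 30 min only, to 21.7 ± 0.130 CPM against 16.5 ± 1.12 CPM untreated. RSM19 (uS19m) rose at 20 to 30 min by 1.04 ± 0.36 and stood at -0.05 ± 0.38 at the end. At 20 to 30 min it had 89.7 CPM in culture 1, against 55.5 and 65.3 CPM untreated. In culture 2 it had 91.8 CPM, against 29.6 and 26.5 CPM. Deletion cells of culture 2 also rose, from 37.3 and 33.2 CPM untreated to 92.8 CPM, while those of culture 1 had 59.3 CPM. For RSM19 the responses of the genotypes did not differ by test in that interval.

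The large subunit showed the same range. MRPL11, the uL10m gene of the stalk, fell by 1.19 ± 0.25, and MRPL32 (bL32m) and MRPL4 (uL29m) fell by 0.46 ± 0.16 and 0.34 ± 0.15 after rises of 0.37 ± 0.14 and 0.32 ± 0.14 at 10 to 20 min. MRPL22 (uL22m) and MRP20 (uL23m) did not pass the test at 50 to 60 min, with -0.28 ± 0.14 and 0.53 ± 0.24. MRP20 did rise at 20 to 30 min, by 0.59 ± 0.24 (edgeR adjusted p = 0.0319), and at 30 to 40 min, by 0.55 ± 0.24. In deletion cells it changed by 0.58 in both intervals, and the responses of the genotypes did not differ by test. MRP7 (bL27m, at the peptidyl transferase centre) had -0.18 ± 0.19, MRPL16 (uL16m) -0.23 ± 0.19 and MRPL36 (bL31m) 0.07 ± 0.09. MRPL36 had 146.7 and 145.8 CPM at 50 to 60 min against 132.4 to 147.5 CPM untreated, so its groups overlapped. By list, 25 of 38 large-subunit and 16 of 27 small-subunit members fell, with medians of -0.65 and -0.81. Of mitochondrion-specific proteins 19 of 24 fell (median -0.81) and of bacterial homologues 22 of 41 (median -0.43), against 36.0% of all genes; the differences between these lists were not tested. With library totals the 4 medians were 0.18, 0.02, 0.02 and 0.40 in the same order of lists, all on the other side of 0.

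The largest early rise was that of MRP8. It had 154.8 and 166.4 CPM at 0 to 10 min, 246.8 and 257.1 CPM at 10 to 20 min, and 147.7 and 182.4 CPM at 50 to 60 min, against 96.2 to 107.7 CPM untreated. Every treated value exceeded every untreated one. Its log2 change was 0.67 ± 0.17 at 0 to 10 min (edgeR adjusted p = 0.00575), 1.34 ± 0.17 at 20 to 30 min and 0.72 ± 0.17 at the end. RSM10, which encodes uS10m of the small-subunit head, peaked earlier, with 111.7 and 125.0 CPM at 10 to 20 min against 55.5 to 64.4 CPM untreated, a change of 0.98 ± 0.19, and was back at 62.9 and 63.4 CPM by 50 to 60 min. MRP35 (bL35m) rose by 0.61 ± 0.16 in the same interval. These 3 genes were higher at 10 to 20 min under all 5 settings (TMM, RLE, library totals, cell number and DESeq2).

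RSM22 rose late. It had 39.6 and 41.6 CPM at 50 to 60 min against 15.8 to 17.1 CPM untreated, with no overlap and a log2 change of 1.31 ± 0.11 (edgeR adjusted p = 2.06e-10). It was not called at 10 to 20 min (-0.24) or 20 to 30 min (-0.02) and passed the test from 30 to 40 min on (0.47, then 1.01). With TMM the members called higher at 50 to 60 min were the pair without a Puf3 motif, but with library totals 15 of the 17 called higher had the motif.

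In fpr1 deletion cells no member was called at any interval, against 0.0% of all genes called in either direction at 0 to 10 and 10 to 20 min, then 3.05, 4.6, 11.8 and 11.5%. In the last interval 3 members had a raw p under 0.05, and DESeq2 called 0. The member median was -0.08 and the range -0.43 to 0.81. With culture as a block 3 members were called lower, and with scaling by cell number 11 were called higher (median 0.54, against 0.69 for all genes). MRPL20 had 63.4 and 80.5 CPM in treated deletion cells, against 78.0 and 72.0 CPM in untreated deletion cells of culture 1 and 91.2 and 85.8 CPM in those of culture 2. MRP8 had 103.8 and 144.3 CPM at 50 to 60 min, against 92.2, 95.3, 118.7 and 121.6 CPM untreated.

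The responses of the genotypes differed by test from 10 min on. The wild-type minus deletion response at 50 to 60 min was lower for 31 members and higher for 1 (all genes: 30.8% lower, 27.5% higher), with a median of -0.63 for members and 0.01 for all genes. Of the 41 members that fell in wild type, 29 were in this set. With library totals 4 were lower and 4 higher, with a median of 0.00 for members against 0.67 for all genes. MRPL19, MRPL20, MRPL33 and RSM26 were lower under all 5 settings (TMM, RLE, library totals, cell number and DESeq2). MRPL19 changed by -2.12 in wild type and 0.11 in deletion cells, a difference of -2.24 ± 0.33 (edgeR adjusted p = 4.56e-06). MRPL20 differed by -1.99 ± 0.29, MRPS8 by -1.77 ± 0.36 and RSM26 by -1.64 ± 0.29. RSM22, higher by 0.87 ± 0.19, rose by 1.31 in wild type and had 0.44 in deletion cells, and with scaling by cell number 0 members were called higher. With culture as a block 39 members were lower and 2 higher, and with library as a block 46 and 2. At 0 to 10 min 0 members differed (all genes: 2.49% lower, 2.2% higher; 1 member with a raw p under 0.05, and 0 with DESeq2), and at 10 to 20 min 3 did, MRP8, RSM10 and RSM25, all higher in wild type (all genes: 20.4% lower, 16.6% higher). With scaling by cell number 0 members were called higher at 10 to 20 min, and with culture as a block 1 was also lower. At 0 to 10 min the block gave 1 higher member. At 20 to 30 min 3 were higher and 2 lower (all genes: 19.7% and 24.6%), at 30 to 40 min 1 and 21 (24.8% and 27.5%), and at 40 to 50 min 1 and 26 (26.4% and 29.2%). Untreated, 0 members differed between wild type and deletion (0.541% of all genes; 0 members with a raw p under 0.05, and 0 with DESeq2).

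As a share of all UMIs, the 67 members together rose and then receded in wild type. In culture 1 they made up 0.320 and 0.318% of UMIs untreated, then 0.352, 0.466, 0.455, 0.363, 0.311 and 0.296% over the 6 treated intervals. In culture 2 the untreated shares were 0.297 and 0.294% and the treated shares 0.323, 0.467, 0.558, 0.510, 0.463 and 0.415%. The cultures were close up to 20 min and parted after it, with culture 2 ending above its untreated share and culture 1 just below it. Leaving the cytosolic ribosomal proteins out of the total, the share was 0.305% at 50 to 60 min against 0.525 and 0.518% untreated in culture 1, and 0.432% against 0.508 and 0.497% in culture 2. Member UMIs per wild-type cell were 6.97 and 13.0 at 50 to 60 min in culture 1 and 2, against untreated means of 13.8 and 16.2. All UMIs per wild-type cell were lower too, at 2360 and 3120. Untreated they were 3650 and 4960 in culture 1 and 5050 and 5970 in culture 2.

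Deletion cells kept a nearly level share in culture 1, with 0.314% at 50 to 60 min against 0.308 and 0.296% untreated. In culture 2 the deletion share was 0.477% against 0.396 and 0.386%. Member UMIs per deletion cell were 21.9 and 18.2 at 50 to 60 min in culture 1 and 2, against untreated means of 9.79 and 16.7. All UMIs per deletion cell were 6960 and 3800. Untreated they were 2790 and 3720 in culture 1 and 4120 and 4420 in culture 2. The wild-type library at 50 to 60 min of culture 1 was the smallest, with 1693 cells. Without it 36 members fell and 2 rose at 50 to 60 min with a median of -0.59, and without the culture 2 library of that interval 42 fell and 1 rose with a median of -0.93.

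**Figure D4:**
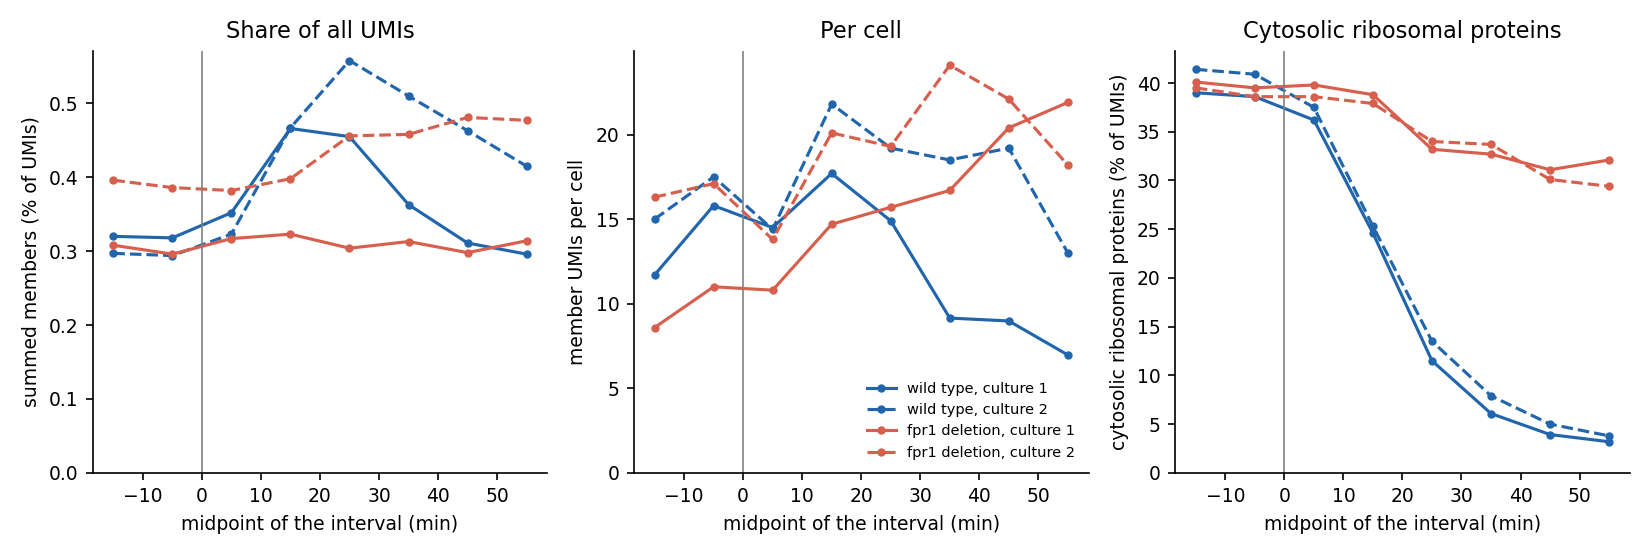
Summed members as % of all UMIs (left), member UMIs per cell (middle) and cytosolic ribosomal proteins as % of all UMIs (right) against the midpoint of each interval (min), by genotype and culture; the grey line marks the drug. The member share of wild type peaks at 10 to 30 min (0.466% in culture 1, 0.558% in culture 2) while the cytosolic share falls to 3.19 and 3.79%.

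Nearly all cells had member UMIs. Before any thinning 97.1 to 99.9% of wild-type cells had at least 1 member UMI. With each cell thinned to 1000 UMIs, and cells below that left out (392 of 1693 in the smallest library), the share was 94.8 and 98.1% at 50 to 60 min, against 94.8 and 95.2% untreated in culture 1 and 93.7 and 93.2% in culture 2. Exact binomial 95% intervals were 93.4 to 95.9% and 97.9 to 98.3% at 50 to 60 min and cover counting error only.

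Other lists in wild type are given beside the members' median of -0.68. At 50 to 60 min 136 of 138 cytosolic ribosomal protein genes fell (median -4.62) and all 30 ribosome biogenesis genes fell (median -4.79). Of other mitochondrial ribosomal proteins 12 of 14 fell (median -0.76), among them MNP1, the mitochondrial L7/L12 protein, at -2.27 ± 0.22 and NAM9 (uS4m) at -0.79 ± 0.13. Of 21 import genes 17 fell (median -0.72). Mitochondrial tRNA synthetases, which charge the tRNAs this ribosome uses, went the other way: 7 of 13 rose and 0 fell (median 0.38), and at 20 to 30 min 12 of 13 rose. Translation factors were mixed, with 2 of 14 higher and 2 lower (12 and 0 with library totals); TUF1, the mitochondrial elongation factor Tu, fell by 0.60 ± 0.24 and MEF1, elongation factor G, had 0.13 ± 0.17. Nuclear respiratory chain and ATP synthase genes rose at 10 to 20 min in 31 of 32 cases (median 0.82) and were split at the end, 15 higher and 8 lower (median 0.33; 25 higher and 0 lower with library totals). With library totals the medians at 50 to 60 min were 0.07 for the other mitochondrial ribosomal proteins (2 lower, 3 higher) and 0.13 for import genes (6 lower, 3 higher), so both changed sign, as did NAM9 (0.05) and TUF1 (0.24), while the tRNA synthetases stayed higher (1.22).

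Among regulators, HAP4, the activating subunit of the CCAAT-binding complex that drives respiratory genes, rose at 0 to 10 min to 104 ± 10.2 CPM against 54.0 ± 5.40 CPM untreated (0.95 ± 0.19, edgeR adjusted p = 7.86e-04; not called with scaling by cell number) and was lower at 50 to 60 min (-0.78 ± 0.21; 0.04 with library totals). PUF3 had 22.4 ± 4.17 CPM at 50 to 60 min against 13.1 ± 5.52 CPM untreated, a rise of 0.74 ± 0.26 in wild type. Its change in deletion cells was 0.79 ± 0.37, which did not pass the test, and the responses differed by -0.06 ± 0.46 (edgeR adjusted p = 0.931). VAR1, the ribosomal protein gene of the mitochondrial genome itself, averaged 6.07 ± 3.01 CPM treated and 2.85 ± 1.02 CPM untreated, which did not pass the test (0.88 ± 0.43); it was higher at 20 to 30 min (1.12 ± 0.38).

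Some members differed between the cultures before the drug. In untreated wild type 7 of 67 were over 1.5 times apart, all higher in culture 1: RSM18 (80.3 and 34.0 CPM in culture 1 and 2), MRPL50 (78.0 and 33.3), RSM19 (60.4 and 28.0), MRPL44 (76.5 and 40.7), MRP20 (31.5 and 18.3), MRPL8 (85.4 and 52.1) and RSM7 (58.4 and 38.9). Their wild-type changes at 50 to 60 min diverged, for RSM18 -1.15 in culture 1 and 0.57 in culture 2. Of the 7, 6 did not pass the test. In deletion cells the changes of all 7 were positive in that interval, from 0.05 (MRPL8) to 0.81 (RSM19). Those of MRP20 (0.10 in culture 1 and 0.90 in culture 2) and MRPL44 (-0.07 and 0.68) diverged there too. They were not the only ones, and the deletion changes of RSM18 and MRPL50 also lay higher in culture 2 than in culture 1. For RSM18 the wild-type minus deletion response was -0.97 in culture 1 and -0.52 in culture 2. These values lay closer together than its wild-type changes. For MRPL50 the wild-type minus deletion response was -0.78 and -0.22. For none of the 7 did the responses of the genotypes differ by test. A shift between libraries of culture 2 shared by both genotypes was not tested. The other 60 were under 1.5 times apart. Across the 67 members the change at 50 to 60 min correlated between the cultures with Pearson's r of 0.83 and Spearman's rho of 0.83, a description across genes that share libraries.

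Wild-type strain codes were uniform in their member share with 1 exception. Before the drug, transcripts of the mitochondrial genome made up 0.0172 to 0.0237% of UMIs in 65 codes of culture 1, but 0.00177 to 0.00345% in the other seven, and the same 7 codes stood apart in culture 2 (0.00169 to 0.00312%, against 0.0175 to 0.0238%). Summed members made up 0.520 to 0.609% of UMIs in these 7 codes, against 0.303 to 0.330% in the 65 others, in culture 1, and 0.475 to 0.527% against 0.274 to 0.298% in culture 2. The ranges did not overlap in either culture, on 104 to 191 cells a code for the 7 and 264 to 410 for the others. Per gene, all 7 codes lay above all 65 others for 48 members (71.6%), against 11.4% of all genes tested, with both cultures summed. MRPS12 had 207 to 241 CPM of library totals in the 7 codes and 121 to 146 in the others, and MRPL20 had 69.1 to 107 against 50.0 to 67.7. Cytosolic ribosomal proteins were lower in the same codes, at 31.4 to 34.1% against 38.3 to 39.4% of UMIs in culture 1, and their part in the members' higher share was not tested.

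The same split was seen after the drug. In culture 2 at 50 to 60 min the 7 codes had member shares of 0.632 to 0.735%, against 0.387 to 0.431% in the others; in culture 1 only 5 of them were left, with 1 to 5 cells each. The labels call all 72 codes wild type and give no further difference between them. Leaving the 7 codes out, an alternative chosen after seeing the data, gave 41 lower and 2 higher members at 50 to 60 min in wild type, the same counts as with them. The 6 deletion codes had mitochondrial-genome shares of 0.0189 to 0.0241% and member shares of 0.277 to 0.312% in culture 1, and 0.0119 to 0.0159% and 0.367 to 0.439% in culture 2, so the member share of deletion codes was higher in culture 2 than in culture 1.

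**Figure D5:**
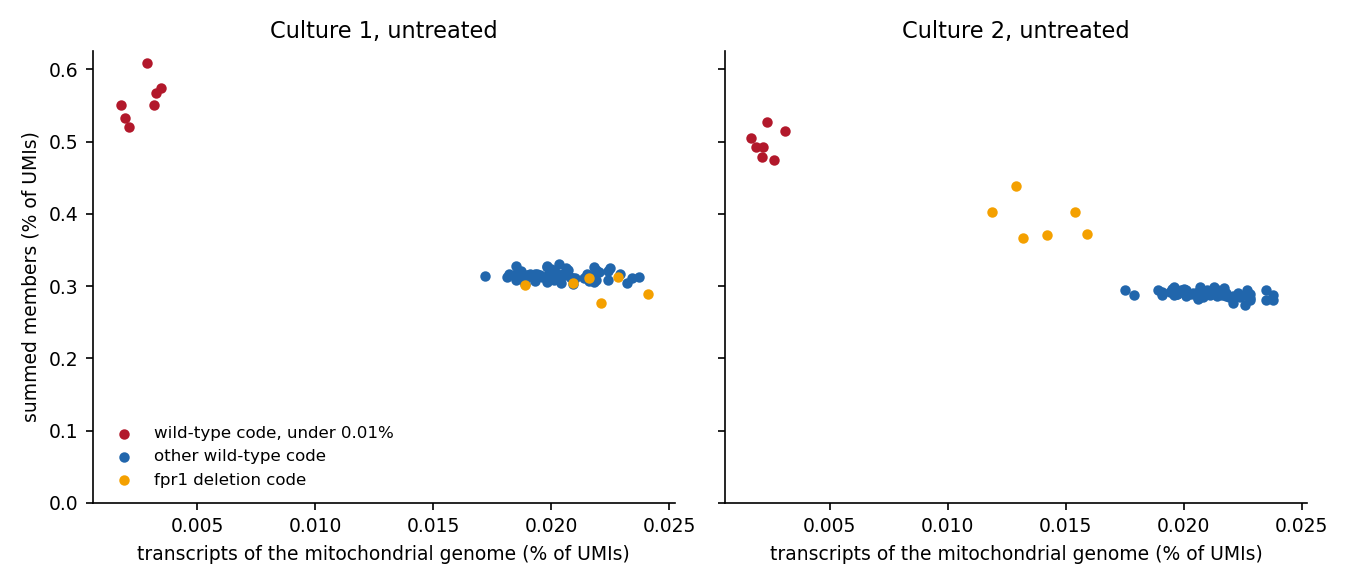
Summed members (y axis, % of UMIs) against transcripts of the mitochondrial genome (x axis, % of UMIs) before the drug, 1 point per strain code, in culture 1 (left) and culture 2 (right). In both, 7 wild-type codes lie at the upper left, at 0.475 to 0.609% on the y axis; the 6 deletion codes lie at 0.277 to 0.312% in culture 1, against 0.303 to 0.330% in the 65 other wild-type codes, and at 0.367 to 0.439% against 0.274 to 0.298% in culture 2.

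The bulk series was too shallow for most members. Its 33 libraries held 3800 to 111293 counts, of which 8 to 463 were of members, and 7 members passed the filter among 910 genes tested. Summed members were 0.405 ± 0.0294% of counts at 120 min, against 0.283 ± 0.0999% at 0 min (SD, n = 3 cultures). The series in between ran 0.272, 0.240, 0.277, 0.318, 0.338, 0.381, 0.341, 0.288 and 0.318%, with its lowest mean at 5 min. By edgeR's test 2 members were called at 120 min (52.4% of genes tested), MRPL37 at 234.4, 537.2 and 337.9 CPM against 103.6, 50.0 and 182.1 CPM at 0 min (1.75 ± 0.59, adjusted p = 0.0108), and MRPS12 at 493.0, 656.6 and 525.7 CPM against 310.7, 174.8 and 227.6 CPM (1.33 ± 0.47, adjusted p = 0.0134). Their groups did not overlap, but without culture 1, 2 or 3 the number called was 1, 0 and 1. The levels at 0 min rest on 1, 2 and 4 counts of MRPL37 and on 3, 7 and 5 counts of MRPS12 in culture 1, 2 and 3. At the 9 earlier times 0 of the 7 were called by edgeR, against 0.0, 2.64, 3.08, 8.57, 15.2, 32.1, 39.1, 46.0 and 47.8% of genes tested, with 0 or 1 with a raw p under 0.05 at each time, and DESeq2 called 1 at 45 and 1 at 90 min. MRP20, MRPL20, MRPL28, RSM10 and RSM7, the other tested members, had changes at 60 min of 0.17 ± 0.59, 1.02 ± 0.91, 0.10 ± 0.62, 1.26 ± 0.77 and -0.14 ± 1.22. MRPL37 and MRPS12 had 0.66 ± 0.69 and 0.05 ± 0.54. In single-cell wild-type sums at 50 to 60 min the same members, in this order, had 0.53, -2.19, -0.60, 0.08, -0.23, -1.115 and -0.92. The falls of MRPL20, MRPL28, MRPL37 and MRPS12 there were thus not seen in bulk, where standard errors were wide. The reason was not tested.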

How the data were processed

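Single-cell libraries (droplet 3' end counting) and bulk 3' libraries of yeast treated with rapamycin were used. Both deposited tables hold raw counts made by the authors, per gene and cell (UMIs) or per gene and library; the sources used here do not say if a bulk count is a UMI or a read. Bcl2fastq, kallisto 0.46.1, bustools 0.39.3 and the sacCer3 build are named per the submitters' processing notes. Genotype, strain code, interval and culture of each cell are the authors'. The 16 genotype-barcode PCR libraries were not used.

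UMIs were summed per library and genotype (32 sums), filtered with filterByExpr (5549 genes), TMM-scaled and tested with edgeR 4.0.16 (R 4.3.3) by its robust quasi-likelihood test, with 16 residual degrees of freedom, against the mean of the 2 untreated intervals; the interaction compared genotypes. Bulk counts had 910 genes and 22 degrees of freedom. DESeq2 1.42.0 was an alternative. The test was also run on simulated sums. These were drawn independently, without the pairing of the cultures or the broad shifts of the real data, so they cannot speak to either. P-values were Benjamini-Hochberg adjusted over all genes, with a threshold of 0.05. A culture is 1 flask sampled in succession, so intervals of a culture are not separate cultures, and p-values measure the spread between these sums. The SD of untreated levels is over the 2 culture means.

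By the labels, one number marks one continuously sampled culture, which pairs the samples; deviations of same-numbered sums correlated at -0.03 to 0.86 (median 0.25) over 120 pairs of groups, and at -0.18 to 0.34 (median 0.06) over 165 bulk pairs. Doublets were not called; an alternative dropped each library's 5% of cells with most UMIs. Binomial intervals are exact (95%). Members and lists were chosen with earlier results of these data known. Named genes are the 8 lowest and 8 highest called members at 50 to 60 min in wild type, 4 and 4 for the interaction and for deletion cells, members called at 0 to 10 min, members tested in bulk, and genes set by role; RSM10, MRP35 and RSM25 at early intervals, RSM18, MRPL50, MRPL44 and MRPL8 by culture, and MRPL33 were named after their values were seen. Leaving out 7 strain codes was an alternative chosen after seeing the data. Sequences and motifs were read from the RefSeq R64 genome.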

Additional observations from a re-analysis of the deposited data

Results flagged for a closer look

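At 50 to 60 min the response of 5 named members differed between wild type and fpr1 deletion by the interaction term of edgeR's quasi-likelihood test. The log2 response of wild type minus that of the deletion was -2.24 for MRPL19, -1.99 for MRPL20, -1.77 for MRPS8 and -1.64 for RSM26, with a deeper fall in wild type in both cultures, and 0.87 for RSM22, with the larger rise in wild type. With library totals MRPL19, MRPL20 and RSM26 were still called lower and RSM22 higher. RSM22 was not called higher with scaling by cell number or with sums thinned to equal depth. Its level in untreated deletion sums rests on 15 to 56 UMIs a sum.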

How the results depend on the processing

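Counts of members called are given where an alternative moved them by over 1.5 times, for wild type (treated against untreated), for the difference in response (wild type minus deletion) and for steps between successive wild-type intervals; causes were not tested. With library totals, wild type had 0 lower and 30 higher at 10 to 20 min, then 0 and 39, 2 and 24, 4 and 21, and 6 and 17 at 50 to 60 min. The difference then had 5 higher at 10 to 20 min, 0 lower and 10 higher at 20 to 30, then 0 and 6, 3 and 6, and 4 and 4, and the steps 5, 0, 0 and 0. With scaling by cell number, wild type had 0 higher at 0 to 10 min, 0 lower and 4 higher at 10 to 20, 1 and 5, 6 and 2, 9 lower at 40 to 50 and 1 higher at 50 to 60; deletion cells had 1, 10, 20 and 11 called from 20 to 30 min on; the difference had 0 higher at every interval from 10 min on and 1, 11 and 14 lower at 20 to 50 min; the steps had 0. With culture as a replicate block, wild type had 1 lower and 2 higher at 0 to 10 min and 4 and 19 at 10 to 20; deletion cells had 2 and 3 at the last intervals; the difference had 1 higher at 0 to 10, 1 lower at 10 to 20, 5 lower at 20 to 30 and 2 higher at 40 to 50 and 50 to 60; the steps had 8, 19, 23 and 6. With library as a replicate block, the difference had 1 higher at 0 to 10, 2 lower and 6 higher at 10 to 20, 9 and 5 at 20 to 30, and 2 higher from 30 min on. The blocks moved no other count by over 1.5 times. With only the groups compared, wild type had 2 higher at 0 to 10 and 5 lower and 14 higher at 10 to 20, the difference 1 lower at 10 to 20, and the steps from 20 to 30 min on 21, 19 and 0. With sums thinned to equal depth, wild type had 1 lower and 0 higher at 0 to 10, 0 lower at 10 to 20 and 7 lower and 5 higher at 20 to 30; the difference had 9 lower at 30 to 40 and 0 higher at 50 to 60; the steps had 2, 3 and 0. DESeq2 gave 3 lower at 10 to 20 and 2 higher at 30 to 40 in wild type, 1 lower at 10 to 20 in the difference, 11, 13 and 5 at the steps, and 1 in bulk at 45 and at 90 min. RLE factors gave 2 lower in wild type and 1 lower in the difference at 10 to 20, and 1 in bulk at 45 and at 90 min. With no filter, wild type had 2 lower at 10 to 20 and 2 higher at 30 to 40, and bulk 1, 1 and 2 at 15, 30 and 90 min. Against the last untreated interval alone, wild type had 5, 3 and 2 higher from 10 to 40 min and deletion cells 1 at 50 to 60. Without the top 5% of cells, wild type had 2 lower and 5 higher at 10 to 20, 6 higher at 20 to 30 and 2 at 30 to 40, the difference 1 lower and 1 higher at 20 to 30, and the step to 20 to 30 had 3. Correcting for wild-type share gave 1 lower in the difference at 10 to 20. Before the gene start only, 2 members held the AAAATTTT motif (2.99%, against 9.14% of all genes) and 7 AGGGG (10.4%, against 19.0%).

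Leaving out 1 replicate at a time gave, in wild type, 0 to 1 higher at 0 to 10 min, 0 to 3 lower and 4 to 10 higher at 10 to 20, 6 to 12 lower and 3 to 12 higher at 20 to 30, 21 to 36 lower and 2 to 5 higher at 30 to 40, 30 to 43 lower and 2 to 3 higher at 40 to 50, and 36 to 45 lower and 1 to 3 higher at 50 to 60. The difference had 0 to 1 lower and 1 to 4 higher at 10 to 20, 0 to 2 and 0 to 4 at 20 to 30, 9 to 21 and 0 to 1 at 30 to 40, 17 to 28 lower at 40 to 50 and 24 to 35 lower at 50 to 60. Deletion cells had 0 to 1 at 50 to 60, the steps 1 to 4, 0 to 7, 0 to 9 and 0 to 3, and bulk 0 to 1 at 120 min. Single log2 changes at 50 to 60 min in wild type that changed sign were, with library totals, MRP1 0.15, MRP51 0.46, MRP7 0.65, MRPL16 0.62, MRPL22 0.55, MRPL32 0.37, MRPL4 0.48, RSM19 0.77 and RSM7 0.59; thinned, MRP7 0.16 and RSM23 -0.013; without the filter, MRPL36 -0.056 and RSM23 -0.013; MRPL36 -0.003 with only the groups compared and -0.044 without the top 5% of cells; RSM19 0.018 by cell number and 0.05 with the replicate block. Leaving out 1 replicate at a time, MRPL16 ranged from -0.789 (without replicate 2 of 50 to 60 min) to 0.065 (without replicate 1), MRPL36 from -0.02 to 0.106 and RSM19 from -0.306 to 0.345.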
